A study of Mus musculus with 12 samples.

Results

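The metabotropic glutamate receptors are the G-protein-coupled receptors for glutamate, and 6 of their genes, Grm2, Grm3, Grm4, Grm5, Grm7 and Grm8, were followed here in RNA-seq and hnRNP H CLIP-seq libraries of mouse striatum. They were picked by gene symbol among the 18208 genes of the RNA-seq table and by gene identifier in the CLIP count table, where they held 421 of 147438 distinct peak positions. CLIP-seq sequences the RNA fragments cross-linked to a protein and pulled down with an antibody against it. The protein was hnRNP H, a splicing regulator known to bind runs of G. All mice were wild-type C57BL/6J animals at postnatal day 50 to 100, born to heterozygous Hnrnph1 mutant fathers and C57BL/6J mothers. All received saline on 2 habituation days. On day 3 the control group received saline again and the treated group received methamphetamine, a psychostimulant that releases dopamine, at 2 mg/kg. The whole striatum was dissected 30 min later. Striata of 4 mice, 2 females and 2 males, were pooled per replicate, and the 3 pools of each treatment each gave 1 CLIP library and 1 RNA-seq library. The comparison addresses which RNAs are bound by hnRNP H, and whether their binding or abundance differs after acute methamphetamine.

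The family is divided into groups by sequence and coupling. Grm5 encodes a group I receptor, which couples to Gq and phospholipase C and sits mainly on the postsynaptic side, where Homer proteins anchor it. Grm2 and Grm3 encode group II receptors, and Grm4, Grm7 and Grm8 encode group III receptors. Both of these groups couple to Gi/o, lower cyclic AMP and largely act as brakes on transmitter release, while Grm3 is also well known from astrocytes. In the striatum, Grm5 is abundant in projection neurons, and the Grm4 receptor acts on corticostriatal and striatopallidal terminals.

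Almost all receptor positions lay in introns. The GENCODE transcript sequences used here (GRCm38) cover exons, so the 3 positions that reach from an intron into coding exon sequence are shown by the exon side of the junction. Each line is read 5′ to 3′ on the gene's strand. Capitals mark the bases inside the CLIP position and lower case marks the rest of the stretch. They show where the receptor positions touch coding sequence, and whether G runs lie there.
Grm3 exon 3, acceptor end, chr5:9570675-9570774, minus strand: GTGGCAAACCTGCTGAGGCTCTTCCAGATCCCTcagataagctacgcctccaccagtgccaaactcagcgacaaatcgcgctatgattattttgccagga
Grm5 exon 8, donor end, chr7:88116193-88116288, plus strand: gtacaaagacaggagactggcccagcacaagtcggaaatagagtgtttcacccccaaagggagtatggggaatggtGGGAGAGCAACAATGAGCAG
Grm8 exon 9, acceptor end, chr6:27285882-27285981, minus strand: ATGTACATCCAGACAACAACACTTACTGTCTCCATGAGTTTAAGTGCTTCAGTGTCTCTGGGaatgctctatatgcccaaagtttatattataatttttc

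The Grm3 position covered 33 exon bases and 67 intron bases, and its exon part held no GGG (the longest G run was 2). The Grm5 position covered the last 20 bases of a 96-base exon, and those bases open with a GGG run. The whole Grm5 exon held 3 separate GGG runs. One of 3 coding transcripts of Grm5 in the annotation contains this exon and 2 skip it. The Grm8 position covered the first 62 bases of its exon, with 1 GGG run. Reads at the Grm5 junction were few: 3, 1 and 2 in the saline replicates and 9, 2 and 0 in the methamphetamine replicates. At the Grm8 junction they numbered 3, 1 and 7 in saline and 2, 4 and 10 in methamphetamine. At both junctions the library with the most reads was a methamphetamine one (replicate 1 for Grm5, replicate 3 for Grm8), and the treatments overlapped. The Grm3 junction had more reads and is described with its gene.

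RNA-seq libraries held 3935160 to 5091839 reads, and CLIP libraries held 423057 to 1635338 reads in peak positions. CLIP reads scaled to the library total are given as CPM, and 3 CLIP reads, the limit that a count of 0 allows, correspond to 1.83 to 7.09 CPM. The RNA-seq values are log2 CPM as the authors deposited them, with an offset of 0.5 reads. They are scaled to an effective library size that differs from the library total. In both assays the first principal component split the libraries across treatment, into saline replicates 1 and 3 with methamphetamine replicate 2 (library set A) and saline replicate 2 with methamphetamine replicates 1 and 3 (set B). This component held 65.6% of the RNA-seq variance and 48.1% of the CLIP variance. The sets were defined from the data, and the labels name no batch that follows them. The effective RNA-seq library size was 0.860 to 0.904 of the total in set A and 1.008 to 1.021 of it in set B. RNA-seq levels and marker sums by set are given on this deposited scale and would differ on library totals. Summed levels of 12 striatal projection neuron markers, all detected and including Drd1 and Ppp1r1b, were 10947 to 12484 CPM in set A and 7814 to 8650 CPM in set B. Those of 12 astrocyte markers were 3187 to 3436 CPM in set A and 4303 to 4572 CPM in set B. Those of 10 microglia markers were 352 to 377 CPM in set A and 407 to 443 CPM in set B. Those of 12 cortical excitatory neuron markers overlapped (1360 to 1748 CPM in set A, 1578 to 2122 CPM in set B). Choroid plexus markers reached 5358 CPM in methamphetamine replicate 2, against 147 to 287 CPM elsewhere. In bulk tissue, fewer cells of a type and less RNA per cell cannot be told apart.

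Per kilobase of exon, Grm3, Grm4 and Grm5 were the most abundant receptor transcripts, Grm7 was intermediate, and Grm2 and Grm8 were low. On the scale of log2 CPM per kilobase of annotated exon, the means over the 6 RNA-seq libraries were 5.26 ± 0.41 for Grm3, 4.72 ± 0.31 for Grm4, 4.59 ± 0.19 for Grm5, 2.95 ± 0.12 for Grm7, 1.02 ± 0.18 for Grm2 and -0.10 ± 0.35 for Grm8 (SD, n = 6). The ranges of Grm3 and Grm4 overlapped, as did those of Grm4 and Grm5, so the place of Grm4 among these 3 lies within the spread between libraries. Compared within each library, Grm3 stood above Grm5 on this scale throughout. From Grm5 down to Grm7, Grm2 and Grm8, each range lay wholly above the next. In reads, the libraries averaged 1102 for Grm5, 705 for Grm4, 552 for Grm3, 204 for Grm7, 44.3 for Grm2 and 43.0 for Grm8. The values of Grm2 and Grm8 therefore carry the most counting error.

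None of the 6 receptor transcripts passed the test for a difference after methamphetamine. On the deposited scale Grm5 had the most separated values: its 3 saline libraries all lay above its 3 methamphetamine libraries. Its log2 CPM were 8.11, 8.08 and 8.08 in saline replicates 1, 2 and 3 and 7.61, 7.88 and 7.92 in methamphetamine replicates 1, 2 and 3. The saline values were nearly equal, and methamphetamine replicate 1 was the lowest. The change was -0.29 ± 0.15 on the log2 scale (standard error; 95% interval -0.64 to 0.06), with an unadjusted limma p of 0.0921 and a Benjamini-Hochberg adjusted p of 0.9998 over 18208 genes. Grm5 was the only 1 of the 6 whose treatment groups did not overlap on this scale, where 6.01% of all genes did not. Because its groups did not overlap, it had to be lower after methamphetamine within each library set. The differences were -0.22 in set A and -0.32 in set B. Scaled to library totals instead, the Grm5 groups overlapped and the saline values were less even. There methamphetamine replicate 3 (1251 of 5091839 reads) lay above saline replicate 3 (1089 of 4688130 reads), and the change was -0.21. Some lists of cell type markers were also uneven between the treatment means. All 12 projection neuron markers were lower in the methamphetamine mean (median -0.24) and all 12 oligodendrocyte markers were higher (median 0.44), with oligodendrocyte sums of 5220 to 12692 CPM in saline and 8247 to 12760 CPM in methamphetamine. Of the 12 astrocyte and the 12 cortical excitatory neuron markers, 10 each were higher (medians 0.15 and 0.34). Of 12 choroid plexus markers 11 were higher (median 1.26), where methamphetamine replicate 2 had the high sum given above. Microglia markers were higher in 7 of 10 cases. Interneuron markers (5 higher, 5 lower) and oligodendrocyte precursor markers (3 higher, 3 lower) were even. Of all 18208 genes, 9172 were higher. No marker of these lists passed the adjusted threshold, and their part in the Grm5 values was not tested.

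The group II transcripts showed no separation by treatment. Grm3 had log2 CPM of 6.74, 7.03 and 6.51 in saline and 7.34, 6.31 and 7.26 in methamphetamine. Its lowest and its highest library were both methamphetamine ones, and the change was 0.21 ± 0.28 (95% interval -0.41 to 0.83). It was 0.027 without methamphetamine replicate 1 and 0.54 without methamphetamine replicate 2. Grm2 had 3.51, 3.39 and 3.05 in saline and 3.25, 3.17 and 3.50 in methamphetamine. Its groups overlapped almost completely, and the change was -0.01 ± 0.26 (95% interval -0.59 to 0.57).

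Among the group III transcripts, Grm4 had log2 CPM of 7.53, 7.09 and 7.70 in saline and 6.87, 7.45 and 7.15 in methamphetamine. The groups overlapped, with saline replicate 2 as low as the treated libraries, and the change was -0.28 ± 0.21 (95% interval -0.77 to 0.20). It was -0.46 without saline replicate 2 and -0.14 without methamphetamine replicate 1. Grm7 had 5.30, 5.56 and 5.61 in saline and 5.60, 5.44 and 5.51 in methamphetamine. It was the steadiest of the 6, with an SD of 0.12 over all libraries and a change of 0.03 ± 0.16 (95% interval -0.35 to 0.40). Grm8 had 2.95, 3.60 and 2.77 in saline and 3.55, 2.98 and 3.42 in methamphetamine, with overlapping groups and a change of 0.21 ± 0.31 (95% interval -0.50 to 0.91). It was 0.46 without saline replicate 2 and 0.039 without saline replicate 3. The adjusted limma p of each receptor was 0.9998. None of the 6 had an unadjusted p under 0.05. Over all 18208 genes 1.52% had one, and the share past the adjusted threshold was 0.0%. The intervals reach past 0.5 log2 units for every receptor except Grm7.

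**Figure D1:**
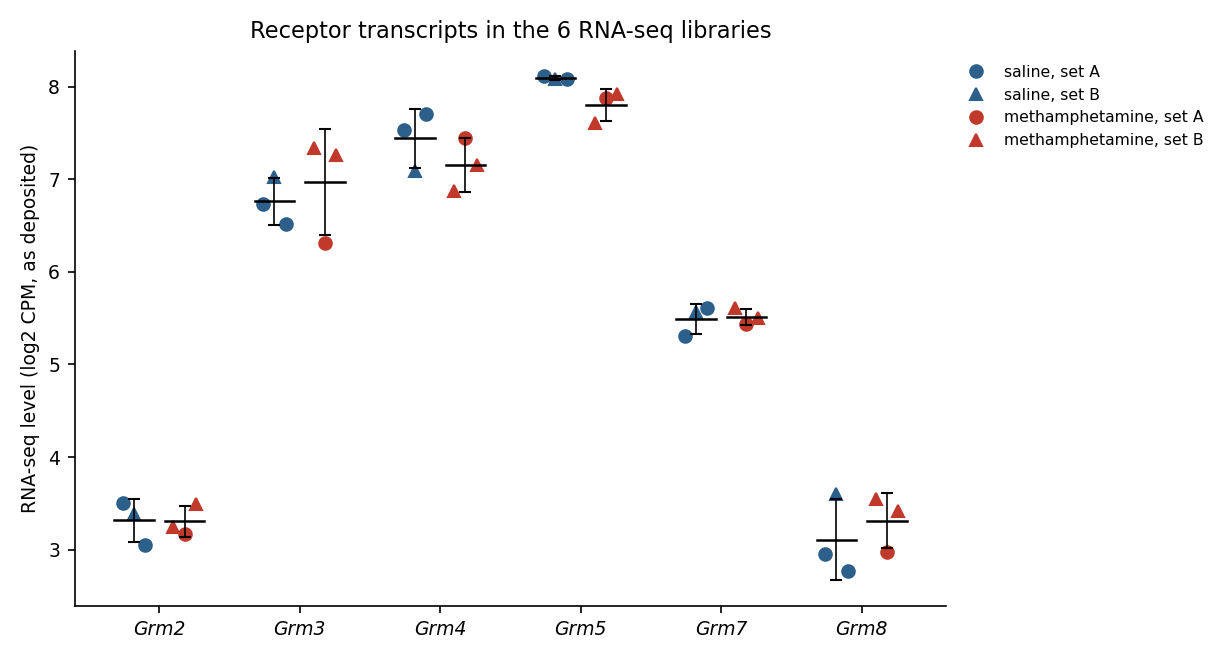
RNA-seq level of the 6 receptor genes (log2 CPM as deposited) in each library; blue points are saline and red points methamphetamine, circles are library set A and triangles set B, and black bars give the treatment mean ± SD (n = 3). The Grm5 saline points sit at 8.08 to 8.11, above all methamphetamine points, and the triangles lie above the circles for Grm3 and Grm8 and below them for Grm4.

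The library sets did not overlap for 3 of the 6 receptor transcripts, Grm3, Grm8 and Grm4, a share near the 38.8% of all genes for which they did not. Grm3 averaged 6.52 ± 0.21 log2 CPM in set A and 7.21 ± 0.16 in set B, which is 1.61-fold higher in set B. Grm8 averaged 2.90 ± 0.11 in set A and 3.52 ± 0.09 in set B, which is 1.54-fold higher. Grm4 averaged 7.56 ± 0.13 in set A and 7.04 ± 0.15 in set B, a ratio of 0.696 (SD, n = 3 throughout). The sets did overlap for Grm2, Grm5 and Grm7. Since the sets were drawn from the same libraries, these values are a description. Astrocyte and microglia marker sums were higher and projection neuron marker sums lower in set B, as given above. Their part in the Grm3, Grm8 and Grm4 values was not tested.

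The genes whose levels ran most alike over the 6 RNA-seq libraries, among 7853 genes with a mean log2 CPM above 4, were Cpne5 for Grm5 (Pearson r = 0.967), Tpd52l2 for Grm3 (0.994), Cnbd2 for Grm4 (0.996), Flcn for Grm7 (0.999), Vps18 for Grm2 (0.988) and Ssu72 for Grm8 (0.996). These are descriptions over 6 libraries that share the set structure. Each is the highest of 7853 values, so a high r can arise by chance, and no background was computed. The number of genes with r above 0.95 was 5 for Grm5, 14 for Grm7 and 24 for Grm2, against 103 for Grm3, 189 for Grm4 and 331 for Grm8. The 3 genes whose library sets did not overlap had the most look-alikes. That match is built in, because the sets follow the first principal component of these same libraries.

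The receptors' partner genes did not pass the test either. Of 15 genes linked to Gq signalling, 4 were higher and 11 lower in the methamphetamine mean, with a median change of -0.07. The extremes were the phospholipases Plcb4 (0.75 ± 0.49) and Plcb3 (-0.25 ± 0.25). Of 21 genes linked to Gi/o signalling, 13 were higher and 8 lower (median 0.08), from the potassium channel subunit Kcnj6 (0.77 ± 0.52) to Adcy5, the main striatal adenylyl cyclase (-0.26 ± 0.31). Of 20 measured scaffold and binding partner genes, 11 were higher and 9 lower (median 0.03). Arc, an immediate early gene of synapses, stood highest in this list at 0.47 ± 0.22 with an unadjusted limma p of 0.0628, and the postsynaptic scaffold Shank3 lowest at -0.30 ± 0.29. Homer1, whose products tie the Grm5 receptor to intracellular calcium stores, was at 0.04 ± 0.20. Of 18 genes for glutamate transport and supply, 14 were higher and 4 lower (median 0.20). The same list had 14 genes higher in library set B, to which 2 of the 3 methamphetamine libraries belong, with a median of 0.56 between sets and sums of 3012 to 3466 CPM in set A and 4479 to 5251 CPM in set B. The part of the sets in its treatment count was not tested. Over all 18208 genes, 9172 were higher in the methamphetamine mean, with a median of 0.0020. In the transport and supply list, the vesicular transporter Slc17a7, also a cortical excitatory neuron marker, stood highest at 1.09 ± 0.57. Slc17a6 stood lowest at -0.67 ± 1.18, with no read in at least 1 library. None of the genes in the 4 lists passed the adjusted threshold or an unadjusted p under 0.05.

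hnRNP H CLIP positions were spread very unevenly over the receptor genes. Grm5 held 259 positions over a gene of 551 kb (chr7:87584168-88134907, plus strand), Grm3 75 over 240 kb (chr5:9485541-9725170, minus strand) and Grm4 72 over 99.0 kb (chr17:27422387-27521403, minus strand). Grm7 held 9 over 922 kb (chr6:110645581-111567230, plus strand), Grm8 5 over 860 kb (chr6:27275119-28135178, minus strand), and Grm2 1 over 13.0 kb (chr9:106643095-106656082, minus strand). Per 100 kb, that is 72.7 positions for Grm4, 47.0 for Grm5 and 31.3 for Grm3, against a median of 15.1 over 16901 genes. Grm7 with 0.977 and Grm8 with 0.581 were at the 3.20th and 1.15th percentile of these genes, and they are the 2 longest of the 6. Every gene in this background holds at least 1 position, so only long genes can reach such low densities. Their counts of 9 and 5 lay above the median of 3 positions per gene. Among all 421 positions, 24 had a read in every library and 116 had at most 3 reads in all, while 407 had at least 1 read.

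**Figure D2:**
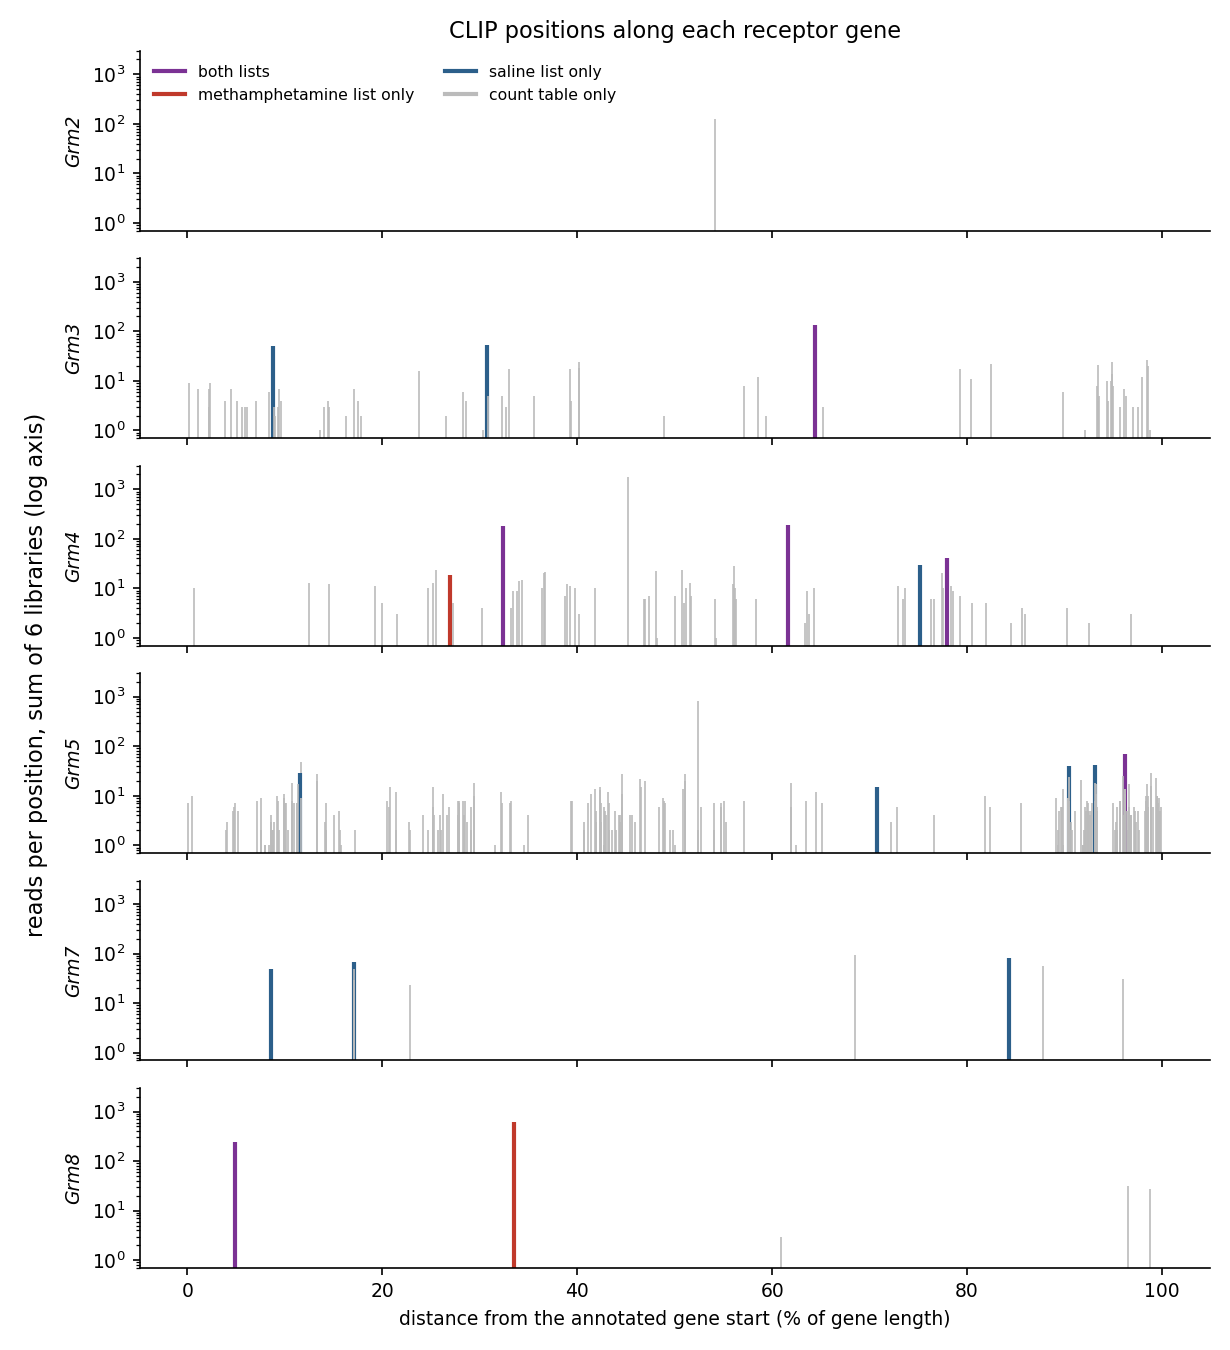
CLIP positions along each receptor gene, by distance from the annotated start (percent of gene length) and reads summed over the 6 CLIP libraries (log axis); purple lines are in both of the authors' peak lists, red in the methamphetamine list only, blue in the saline list only and grey in the count table only. Grm3, Grm4 and Grm5 carry many low positions, while Grm2, Grm7 and Grm8 carry 1 to 9, and the highest lines of Grm4 and Grm5 are grey.

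Intronic positions took nearly all receptor CLIP reads. Per library the intronic share was 99.2%, 99.6% and 99.0% in saline and 97.3%, 99.2% and 96.4% in methamphetamine. The means were 99.2% ± 0.29 and 97.6% ± 1.43 (SD, n = 3), and the exact two-sided permutation p was 0.3, where 0.1 is the smallest 3 against 3 can give. Over all genes the shares were 72.3% ± 1.92 and 67.8% ± 3.19 (exact permutation p = 0.2). With regions read at the position midpoint, the reads outside receptor introns came from 12 positions in the Grm5 3′ UTR and 1 in a coding exon of Grm8. The Grm3 junction position, which the authors assign to coding sequence, counts as intronic here. The Grm5 3′ UTR reads numbered 8, 3 and 11 in saline and 51, 5 and 15 in methamphetamine, so methamphetamine replicate 1 stood apart. These 12 were the only receptor positions lying wholly within an exon, and 6 of them (50.0%) contained GGG on the gene's strand. Of 10920 such 3′ UTR positions over all genes, 63.0% contained GGG.

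Grm5 had 2770 CLIP reads in all, and 2 libraries stood far above the rest. The reads were 312, 511 and 385 in saline and 1119, 230 and 213 in methamphetamine. Scaled to library depth these were 296, 1208 and 235 CPM in saline and 1231, 235 and 358 CPM in methamphetamine. Saline replicate 2 and methamphetamine replicate 1 were thus alike in total and far above the others, with 1 such library in each treatment. The edgeR quasi-likelihood test on gene sums gave a change of 0.03 ± 0.80 (log2; 95% interval -1.79 to 1.84; Benjamini-Hochberg adjusted p = 0.998 over 8185 genes). Leaving out 1 library at a time moved it from -1.05 (without methamphetamine replicate 1) to 1.18 (without saline replicate 2).

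The 2 high Grm5 libraries were built differently. In saline replicate 2 a single intronic position, chr7:87872569-87872668, held 381 of the 511 reads (74.6%). That position had 58, 381 and 115 reads in saline and 129, 66 and 88 in methamphetamine, and it was in neither of the authors' peak lists. In methamphetamine replicate 1 it held only 11.5% of the reads. There the reads were spread along the gene: 217 of 259 positions (83.8%) had a read, while the other 5 libraries had 23.9% to 44.0%, although saline replicate 3 was sequenced more deeply. Over all 147438 positions methamphetamine replicate 1 also had the widest coverage, 69.1% against 36.8% to 64.5%. Methamphetamine replicate 1 also had the highest CPM of the 6 libraries at 62.5% of Grm5 positions, compared with 33.5% of all CLIP positions. Without the highest position the Grm5 sums were 241, 307 and 165 CPM in saline and 1089, 167 and 210 CPM in methamphetamine, leaving methamphetamine replicate 1 alone above the rest. With the highest position of each gene left out, the Grm5 change was 0.56 (edgeR adjusted p = 0.944).

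**Figure D3:**
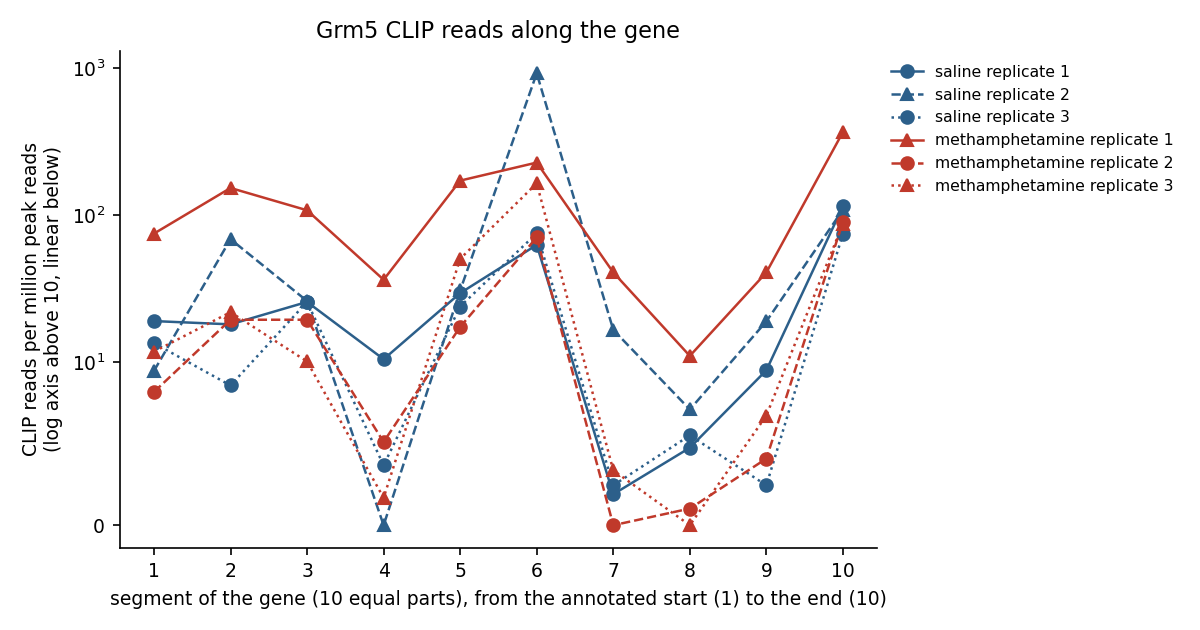
Grm5 CLIP reads (CPM of peak reads; log axis above 10, linear below) in 10 equal segments of the gene from its start (1) to its end (10), 1 line per library, red for methamphetamine and blue for saline, circles for library set A and triangles for set B. Methamphetamine replicate 1 runs above the other lines in 9 of the 10 segments, and saline replicate 2 peaks in the sixth.

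Of 10 equal segments of Grm5, the last held 87 of its positions and 763 reads (27.5%), and the sixth held 953 reads (34.4%), mostly from the position above. Of the authors' 5 listed Grm5 positions, the one with the most reads, chr7:88113769-88113868, was in both lists and lies in that last segment. It had 18, 3 and 13 reads in saline and 11, 19 and 7 in methamphetamine, with overlapping groups and an edgeR change of 0.53 ± 0.52. Another, chr7:87647569-87647668, was listed for saline only and had 1, 16 and 1 reads in saline and 10, 0 and 1 in methamphetamine, so its reads came from the same 2 libraries as the high Grm5 totals. The position with the smallest unadjusted p in Grm5, chr7:87648069-87648168, had an edgeR change of 0.96 ± 0.66 (adjusted p = 0.996).

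Grm3 carried 751 CLIP reads spread over 75 positions, all intronic by midpoint, the highest of which held 17.8%. Its gene sums were 161, 82.7 and 105 CPM in saline and 221, 120 and 94.1 CPM in methamphetamine. Methamphetamine replicate 1 was the highest library and saline replicate 2 the lowest, and the other values interleaved. The change was 0.32 ± 0.45 (edgeR adjusted p = 0.919). The best covered Grm3 position is the junction printed above, at chr5:9570742-9570841, which the authors' deposited table assigns to coding sequence in both lists. It had 27, 10 and 39 reads in saline and 19, 24 and 15 in methamphetamine. After scaling by TMM (edgeR's trimmed mean of M-values) these were 23.5 ± 3.16 and 24.6 ± 3.51 CPM (SD, n = 3). The change was 0.08 ± 0.39 (95% interval -0.84 to 0.99).

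Grm2 had a single CLIP position, in an intron, with 4, 48 and 10 reads in saline and 55, 2 and 4 in methamphetamine. The 2 high values, 113 CPM in saline replicate 2 and 60.5 CPM in methamphetamine replicate 1, came from the same 2 libraries as for Grm5, while the other 4 had 2.04 to 6.72 CPM. Grm2 did not pass the count filter and was not tested.

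Grm4 had the most CLIP reads of the 6 genes, 2819, and 1 position supplied 62.6% of them. Its gene sums were 537, 574 and 475 CPM in saline and 550, 510 and 393 CPM in methamphetamine, with a change of -0.15 ± 0.32 (95% interval -0.87 to 0.58; edgeR adjusted p = 0.943). These were the most even sums of the 6 receptors. The leading position, chr17:27476588-27476687, had 380, 185 and 475 reads in saline and 252, 323 and 151 in methamphetamine. It held between 50.4% and 76.1% of the gene's reads in every library, yet stood in neither peak list. Its edgeR change was -0.25 ± 0.36, with overlapping groups. The listed position with the most reads, chr17:27460288-27460387, had 48, 9 and 64 reads in saline and 17, 38 and 16 in methamphetamine, was in both lists, and had a change of -0.24 ± 0.40 in the same test. The position chr17:27494688-27494787 was in the methamphetamine list only. It had 0, 1 and 0 reads in saline and 18, 0 and 0 in methamphetamine, so 1 of 3 methamphetamine libraries supplied all its treated reads.

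Grm7, a presynaptic receptor of low glutamate affinity, had 485 reads over 9 intronic positions, and none held more than 19.6% of them. Its gene sums were 116, 49.6 and 96.0 CPM in saline and 38.5, 108 and 73.9 CPM in methamphetamine, with a change of -0.27 ± 0.47 (edgeR adjusted p = 0.928). The low libraries were those of set B in both treatments, and the sets did not overlap. Among the 5 receptors tested this held for Grm5 (higher in set B) and Grm7 (lower in set B), where the sets did not overlap for 25.5% of all gene sums. All 3 of its listed positions were in the saline list only. The best covered of them, chr6:111422482-111422581, had 31, 1 and 25 reads in saline and 8, 15 and 3 in methamphetamine. The second, chr6:110802882-110802981, had 12, 4 and 32 in saline and 1, 15 and 5 in methamphetamine, and the third, chr6:110724182-110724281, had 17, 0 and 12 in saline and 1, 18 and 1 in methamphetamine. In all 3, the methamphetamine library with the most reads was replicate 2, of set A, and the saline library with the fewest was replicate 2, of set B. Saline replicate 2 was also the CLIP library with the fewest reads in total (423057). After TMM scaling it was not the lowest at the second position, with 10.3, 10.7 and 16.8 CPM in saline replicates 1, 2 and 3. The edgeR change of the first was -0.59 ± 0.72 and that of the second -0.69 ± 0.72. The third did not pass the filter. Another position, chr6:111276682-111276781, with the smallest unadjusted p in Grm7, had an edgeR change of 0.60 ± 0.53 (adjusted p = 0.996), which was 0.13 without methamphetamine replicate 3.

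Among the 5 receptors that passed the CLIP count filter, Grm8 carried the most CLIP signal for its RNA. It had 915 CLIP reads in 5 positions, and 2 intronic positions held 93.2% of them. Its gene sums were 145, 161 and 183 CPM in saline and 75.9, 186 and 240 CPM in methamphetamine, with a change of 0.02 ± 0.44 (95% interval -0.99 to 1.02; edgeR adjusted p = 0.996). The larger position, chr6:27847220-27847319, had 118, 54 and 223 reads in saline and 47, 132 and 35 in methamphetamine. It was in the methamphetamine list only, although its TMM-scaled level was 121 ± 21.8 CPM in saline and 80.4 ± 28.5 CPM in methamphetamine (SD, n = 3). Its change was -0.58 ± 0.39 (95% interval -1.48 to 0.32). The other, chr6:28093220-28093319, was in both lists and had 25, 8 and 61 reads in saline and 20, 39 and 91 in methamphetamine. Its TMM-scaled levels were 21.5, 21.4 and 32.0 CPM in saline and 28.4, 33.4 and 160 CPM in methamphetamine, so methamphetamine replicate 3 alone was high. Its change of 1.52 ± 0.71 had the smallest p of the 12 receptor positions tested (edgeR unadjusted p = 0.0655, adjusted p = 0.996) and was 0.32 without methamphetamine replicate 3.

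**Figure D4:**
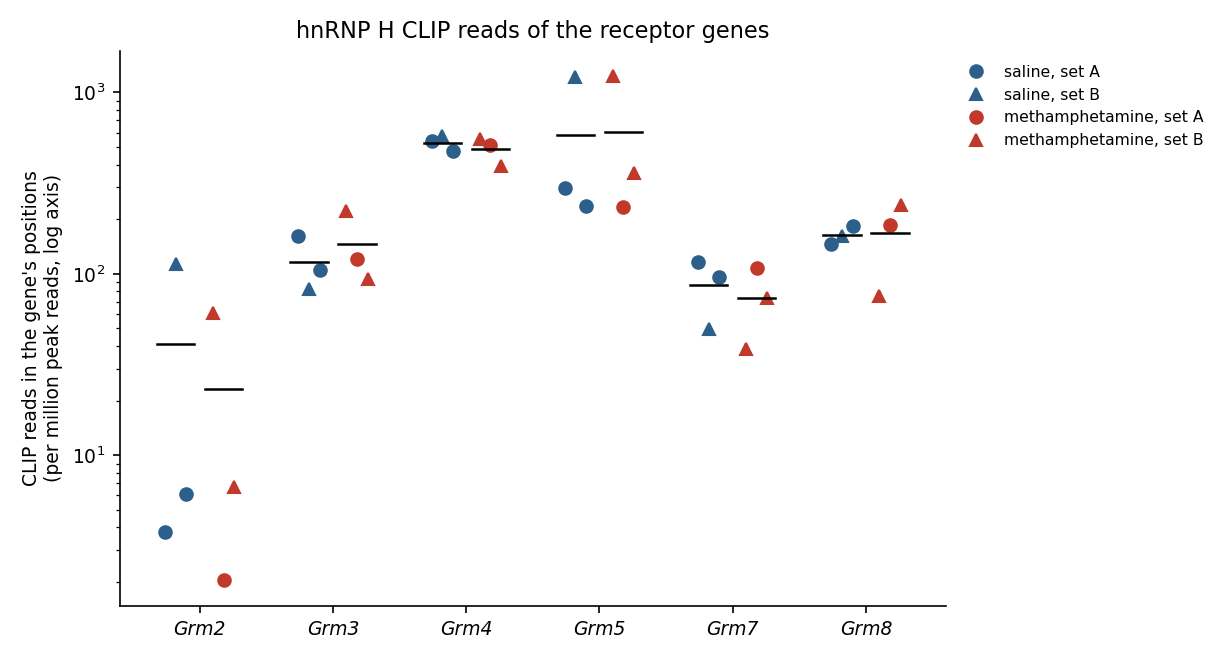
CLIP reads summed over the positions of each receptor gene (CPM of peak reads, log axis) in each library; blue is saline, red methamphetamine, circles are library set A, triangles set B, and black bars mark the arithmetic mean of 3 libraries. Grm4 is the most even at 393 to 574, while for Grm5 and Grm2 saline replicate 2 and methamphetamine replicate 1 lie above the other 4 libraries.

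Over the 12 receptor positions that passed the count filter (2.85% of 421, against 7.03% of all positions), 5 were higher and 7 lower after methamphetamine, and none had an unadjusted p under 0.05, where 3.56% of the 10358 tested positions did. None of the 5 tested gene sums had one either, against 5.24% of 8185 genes, and none had treatment groups that did not overlap, against 9.6%. Past the adjusted threshold the share was 0.0% for positions and for gene sums alike, receptors and all others together. The authors' lists held 8 receptor positions for methamphetamine and 16 for saline. Of the 8, 6 (75.0%; Wilson 95% interval 40.9 to 92.9) met a saline position, against 48.7% of the whole methamphetamine list. Of the 16, 6 (37.5%; 18.5 to 61.4) met a methamphetamine position, against 50.0% of the whole saline list. Both shares rest on the same 6 positions, so they are not separate results. The intervals take positions as independent, although several lie in the same gene. The lists pool the replicates of a treatment, so they carry no replicate check.

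To set CLIP reads against transcript abundance, the log2 CPM of each CLIP gene sum was compared with the RNA-seq log2 CPM of the library with the same treatment and replicate number, taken as the same pool from the titles. Grm8 had the highest ratio of the 5 receptors, 4.08 ± 0.76 (log2; SD, n = 6 pools), at the 89.9th percentile of 7036 genes whose median was 0.09. Among the receptors, Grm4 followed at 1.68 ± 0.40, Grm5 at 0.88 ± 1.22, Grm7 at 0.73 ± 0.72 and Grm3 at 0.09 ± 0.60. Grm8 lay between 2.71 and 4.75 in the 6 pools, above every value of the other receptors compared. The ranges of Grm5 (-0.20 to 2.66) and Grm7 (-0.32 to 1.56) overlapped those of Grm4 (1.19 to 2.24) and Grm3. Grm5 stood above Grm4 in saline replicate 2 and methamphetamine replicate 1, and Grm7 stood above Grm4 in saline replicate 1. The order of the means below Grm8 therefore does not hold in every pool. Grm8 and Grm2 had similar RNA reads, but Grm2 had too few CLIP reads for this comparison. Grm5 had the widest spread, reaching 2.15 in saline replicate 2 and 2.66 in methamphetamine replicate 1, while the remaining 4 pools lay between -0.20 and 0.57. CLIP positions are mostly intronic and RNA-seq levels are counted per gene, and the part of unspliced RNA in the ratio was not tested.

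By treatment the ratios differed by less than their spread. The limma changes were 0.39 ± 0.85 for Grm5, 0.07 ± 0.56 for Grm3, 0.15 ± 0.51 for Grm4, -0.31 ± 0.61 for Grm7 and -0.32 ± 0.68 for Grm8, each with an adjusted p of 0.998. Among the 5, none had an unadjusted p under 0.05, against 3.03% of 7036 genes, and 0.0% of all genes passed the adjusted threshold. The intervals were wide, from -1.85 to 1.21 for Grm8 and from -1.52 to 2.30 for Grm5, and allow changes of more than 1 log2 unit in both directions.

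**Figure D5:**
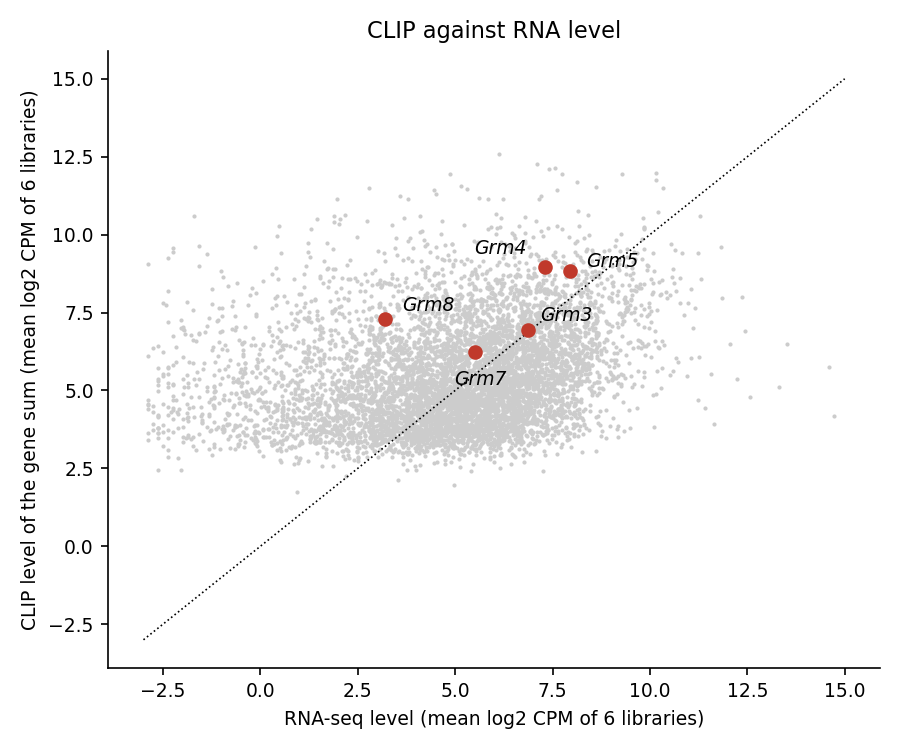
Mean CLIP level of the gene sum against mean RNA-seq level (both log2 CPM over 6 libraries) for 7036 genes in grey and 5 receptors in red; the dotted line marks equal values. Grm8 lies 4.08 above the line and Grm3 lies on it at 0.09.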

How the data were processed

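The authors deposited RNA-seq values as voom log2 CPM, per the labels. With the offset of 0.5 reads, 100% of them inverted to whole reads (tolerance 0.01). Counts of CLIP reads per peak position came from the deposited table, where repeated lines were used once. In the authors' 2 peak lists each peak has a deposited signal value, used here as a score of unstated scale. The lists also hold deposited p-values and q-values, from a test the file headers leave unnamed. The submitters' processing notes name Trimmomatic, UMI-tools, STAR, bedtools, featureCounts, limma, edgeR and the build mm10, without roles. Whether the counts were deduplicated is not stated in the sources used here, so the read floors and the Wilson intervals cover counting error only; the intervals of changes come from the spread between libraries.

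Levels were tested with limma 3.58.1 (mean-variance trend) over all genes, and CLIP counts with edgeR 4.0.16 (TMM, filterByExpr, quasi-likelihood), in R 4.3.3; standard errors in edgeR are the change over the root of F. The ratio used limma on log2 CLIP CPM (prior count 0.5) minus RNA log2 CPM of the library with the same treatment and replicate number. Per the labels' protocols, tissue for RNA-seq was taken from each pool before cross-linking; that equal numbers mean the same pool rests on the titles. Regions were read at the position midpoint from GENCODE M21. Adjustment was Benjamini-Hochberg at 0.05. Exact tests used scipy 1.17.1. DESeq2 1.42.0, other scalings, filters, a replicate block, the library set and each library left out were alternatives, and leaving out the highest position of each gene was added after seeing the data. The main limma and edgeR fits were run on simulated data with differences of known size, and the alternatives were not. There the RNA-seq fit missed all of the smallest differences added. The CLIP and ratio fits missed all or most of those below the largest size. Annotated genes share exon bases with Grm2 (Gm28111), Grm7 (Gm20387) and Grm8 (Mir592); whether counting used strand is not stated in the sources used here, so these levels are uncertain to that extent. Named positions were, per receptor, the listed one with the most reads and the one with the smallest unadjusted p; the other positions, and the junctions, were chosen after their values were seen. The members, partner lists and marker lists were chosen with earlier results of these data known. The share of listed positions with G runs was not computed, because no genome sequence was used here.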

Additional observations from a re-analysis of the deposited data

How the results depend on the processing

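No call among genes, positions, gene sums or ratios depended on a setting except that CLIP positions without a count filter gave 414 calls in edgeR, 0 of them in the 407 receptor positions with a read. Counts of unadjusted p under 0.05 ranged over the alternatives from 109 to 958 for RNA-seq, 109 to 6792 for positions, 182 to 993 for gene sums and 146 to 484 for ratios. The sign of small changes did move. In RNA-seq, Grm2 was at 0.072 on library totals and 0.067 with 1 CPM as pseudocount, Grm7 at -0.0094 after quantile normalization, and with the library set as covariate Grm3 was at -0.020, Grm7 at -0.013 and Grm8 at -0.00014. In CLIP gene sums, Grm5 was at -0.013 in DESeq2, -0.0096 with RLE factors and -0.066 without a filter, Grm8 at -0.032 without a filter, Grm3 at -0.38 and Grm5 at -0.36 over listed positions only, and with the set covariate Grm5 was at -0.45 and Grm7 at 0.035. The set covariate gave ratio changes of -0.021 for Grm4, -0.25 for Grm5 and 0.076 for Grm7, and moved the Grm3 junction position to -0.050, which was at -0.26 without a filter. The causes were not tested. With 1 library left out, RNA-seq changes ran from -0.14 to 0.085 for Grm2 and -0.068 to 0.083 for Grm7, gene sums from -0.15 to 0.55 for Grm3, -1.05 to 1.18 for Grm5, -0.71 to 0.029 for Grm7 and -0.39 to 0.35 for Grm8, ratios from -0.28 to 0.47 for Grm3, -0.095 to 0.39 for Grm4, -0.40 to 1.13 for Grm5, -0.69 to 0.14 for Grm7 and -0.64 to 0.29 for Grm8, and positions from -0.41 to 0.10 for the leading Grm4 position and -0.91 to 0.18 for the best covered listed Grm7 position. In the same fits the RNA-seq change stayed between -0.35 and -0.19 for Grm5, 0.027 and 0.54 for Grm3, -0.46 and -0.14 for Grm4 and 0.039 and 0.46 for Grm8, and the gene sum between -0.27 and -0.072 for Grm4. The other named positions kept their sign, from 0.29 to 1.02 and 0.62 to 1.55 in Grm5, 0.13 to 0.88 in Grm7, -0.39 to -0.040 in Grm4, 0.0067 to 0.21 in Grm3, and -0.92 to -0.39 and 0.32 to 1.95 in Grm8. With the replicate number as a block, the Grm8 gene sum was at -0.12 and no call was made. Same-numbered RNA-seq libraries did not vary together (correlations -0.09, -0.46 and -0.23). Each number joins a set A and a set B library, so these correlations cannot tell whether the numbers pair the samples. Over listed positions only, both treatments had an intronic share of 100% by position midpoint, a difference of 0. This counts the Grm3 junction position as intronic, which the authors' lists assign to coding sequence. CLIP depth limits what single receptor positions can show, since 116 of 421 had at most 3 reads. Shares of listed positions with GGG or GGGG were not run.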
